A study of Homo sapiens with 6 samples.

Results

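Polyamine synthesis and catabolism were followed through 10 genes, matched by symbol among the 58395 genes counted in each library: ODC1, AZIN1, OAZ1, OAZ2, AMD1, SRM, SMS, SAT1, SMOX and PAOX. All 10 were found and all 10 passed the filter on low counts, which left 16542 genes for testing. RNA was sequenced from THP-1, a human acute monocytic leukaemia line grown in RPMI medium with 10% fetal bovine serum. There were 3 libraries of cells given 1 µM monensin for 16 h and 3 libraries of cells with no exposure. Monensin is an ionophore that exchanges sodium for protons across membranes. No vehicle is named for the untreated cells, so monensin and a vehicle, if one was used, cannot be told apart.

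Polyamines are small positively charged molecules that bind nucleic acids and are needed for growth and translation. Ornithine decarboxylase (ODC1) makes putrescine, and AMD1 makes decarboxylated S-adenosylmethionine, whose aminopropyl group is added by SRM to form spermidine and by SMS to form spermine. Antizymes (OAZ1, OAZ2) are translated through a ribosomal frameshift when polyamines are abundant, bind ODC1 and deliver it to the proteasome, and AZIN1, an inactive relative of ODC1, binds antizyme in its place. SAT1 acetylates spermidine and spermine, PAOX oxidises the acetylated forms, and SMOX oxidises spermine directly, releasing hydrogen peroxide.

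Because ODC1, SRM and AMD1 fell together with monensin and SAT1 rose (values follow), the DNA around a RefSeq transcript start of each is shown first. RefSeq windows on GRCh38.p14 matched 7 of the 10 genes; AZIN1, SMOX and PAOX were not matched. Each line runs 5′ to 3′ on the gene's strand, from 250 bases before a RefSeq transcript start to 30 bases past it, and capitals mark the E-box letters CACGTG, which MYC with MAX and the MiT/TFE factors can bind.

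ODC1, second start, chr2:10447983-10448262, minus strand: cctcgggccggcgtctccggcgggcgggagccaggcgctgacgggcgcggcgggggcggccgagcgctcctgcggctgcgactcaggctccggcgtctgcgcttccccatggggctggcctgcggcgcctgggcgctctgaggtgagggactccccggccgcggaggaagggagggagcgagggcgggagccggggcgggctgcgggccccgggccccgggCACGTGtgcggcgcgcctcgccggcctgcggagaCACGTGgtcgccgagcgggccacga
SRM, chr1:11059989-11060268, minus strand: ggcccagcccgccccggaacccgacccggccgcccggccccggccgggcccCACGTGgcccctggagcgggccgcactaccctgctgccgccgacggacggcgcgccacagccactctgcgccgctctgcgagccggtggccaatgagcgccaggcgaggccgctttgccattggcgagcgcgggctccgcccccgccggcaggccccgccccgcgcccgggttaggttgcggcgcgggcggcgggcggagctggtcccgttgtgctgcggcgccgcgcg
AMD1, chr6:110874535-110874814, plus strand: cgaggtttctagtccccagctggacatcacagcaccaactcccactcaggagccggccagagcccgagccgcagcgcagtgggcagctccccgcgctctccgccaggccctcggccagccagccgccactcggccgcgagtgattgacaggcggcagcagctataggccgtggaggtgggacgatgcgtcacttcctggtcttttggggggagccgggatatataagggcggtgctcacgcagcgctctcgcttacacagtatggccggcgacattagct
SAT1, chrX:23782923-23783202, plus strand: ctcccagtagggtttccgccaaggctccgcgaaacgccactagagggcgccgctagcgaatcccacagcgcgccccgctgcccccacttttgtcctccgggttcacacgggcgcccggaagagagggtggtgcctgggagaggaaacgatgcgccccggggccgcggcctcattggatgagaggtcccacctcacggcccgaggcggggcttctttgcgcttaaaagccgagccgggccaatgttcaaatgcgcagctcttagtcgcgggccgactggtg

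CACGTG reads the same on both strands. It occurs 2 times in the window of the second ODC1 start, starting 29 bases before that start and at base 6 past it. That window lies wholly within the ODC1 gene, which runs from 10439968 to 10448504 on the minus strand. The window of the first ODC1 start, chr2:10448298-10448577, spans the annotated 5′ end of the gene and is not printed. In the SRM window CACGTG occurs 1 time, starting 199 bases before the start. No CACGTG lies in the other windows of the matched genes (the first ODC1 start, OAZ1, OAZ2, 3 starts of AMD1, SMS and SAT1). Over all 35116 RefSeq windows of the same length, 6.94% hold it. Also searched, on both strands, were TGATGNAA (a C/EBP-ATF composite site), TGACGTCA (the cAMP response element) and TGACNNNGC (the antioxidant response element), held by 3.45%, 1.85% and 12.4% of all windows. TGACNNNGC lies in the first ODC1 window, starting 5 bases before the start, and the other matches of these 3 motifs in windows of the 10 genes number 0. The motifs do not overlap one another in these windows, and a match describes letters only.

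Gene counts per library ranged from 22975888 to 24774546 with monensin and from 24159573 to 25710513 without. The 10 genes together held 0.222% ± 0.00321 of gene counts in monensin libraries and 0.232% ± 0.00335 in untreated libraries (mean ± SD, n = 3 each). Of 11 markers of monocytic cells, 11 averaged at least 1 CPM with monensin and 10 without exposure, CD14 being below it in untreated cells, and their summed level ran from 1200.0 to 1252 CPM with monensin and from 1617 to 1683 CPM without. LYZ accounted for this order, at 292 CPM with monensin and 791 CPM without; the sum of the other 10 ran from 927 to 963 CPM with monensin and from 842 to 890.3 CPM without, and 5 of the 11 markers were called higher and 4 lower. Summed markers of T cells stayed at or under 0.321 CPM in every library, and those of epithelial and erythroid cells were listed at 0 in every library. The B cell gene PAX5 was detected at 3.06 CPM with monensin and 2.54 CPM without, whereas MS4A1 had 0 counts over the monensin and 1 over the untreated libraries. Of the 5 endothelial and stromal markers, CDH5 and COL1A2 were at 0 in all libraries, and PECAM1, which monocytes also express, made up nearly all of the summed 306 to 329 CPM with monensin and 258 to 266 CPM without. The part of these marker differences in the results was not tested.

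By edgeR's quasi-likelihood test, adjusted over all 16542 genes, 3 of the 10 polyamine genes rose with monensin (SAT1, SMOX, OAZ1), 4 fell (ODC1, AMD1, SRM, AZIN1) and 3 were not called (OAZ2, SMS, PAOX). At the same threshold, an adjusted p under 0.05, 34.1% of all tested genes were higher and 33.7% lower, 67.8% in either direction, so the shares of 30% and 40% are near the background and say nothing about the pathway as a whole. The median log2 fold change was -0.05 over the 10 genes and 0.02 over all tested genes. TMM scales libraries on the assumption that most genes do not change; with scaling by total counts alone 4 of the 10 were called higher and 4 lower, against 39.8% and 27.8% of all genes. Each library can carry its own trend of counts with GC content and exon length. After a correction that takes out such trends, fitted as splines, 2 of the 10 genes were called higher and 7 lower, against 29.5% and 38.9% of all genes. This correction, here and below, also takes out any response to monensin that goes with GC content or length. Such a response and a technical trend cannot be told apart in this design. The median log2 fold change of all tested genes was 0.11 with total counts alone and -0.06 after the GC and length correction. In bulk RNA, fewer cells that express a gene and less of its RNA per cell cannot be told apart.

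**Figure D1:**
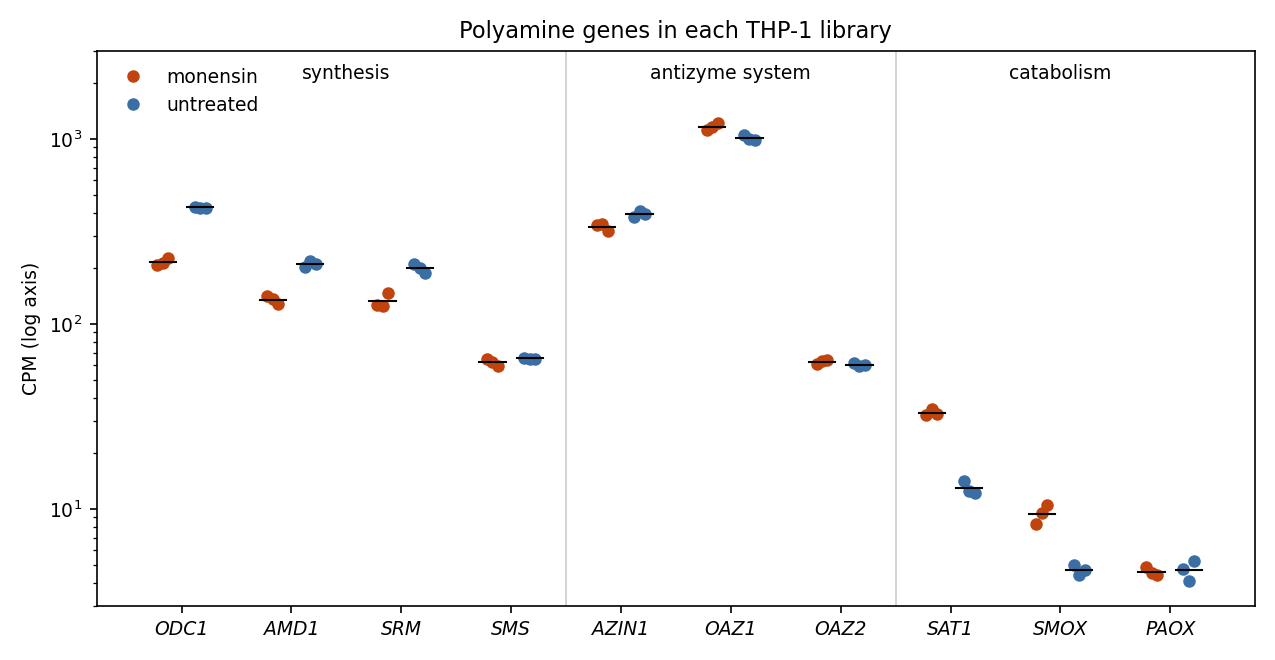
Level of each polyamine gene in each library, in CPM (counts scaled to TMM-adjusted library size, log axis), with monensin libraries in red and untreated libraries in blue; horizontal lines are group means of 3 libraries. ODC1, AMD1, SRM and AZIN1 lie lower and OAZ1, SAT1 and SMOX higher in every monensin library than in every untreated library. The groups overlap for SMS, OAZ2 and PAOX. Over all tested genes, 71.1% had groups that did not overlap.

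Among the genes of synthesis, ODC1, AMD1 and SRM fell, and SMS, the last step, was not called. The groups did not overlap for ODC1, AMD1 and SRM, which also held for 71.1% of all tested genes. ODC1 (ENSG00000115758), which makes putrescine and lies on chromosome 2 from 10439968 to 10448504 on GRCh38, had 209, 214 and 226 CPM (counts per 1000000 of TMM-adjusted library size) in monensin libraries, against 431, 426 and 426 CPM in untreated libraries. The groups were far apart, and the coefficient of variation of the untreated libraries, 0.628%, was under the counting error of 0.980%. ODC1 fell by 0.98 on the log2 scale (SE 0.04, 95% interval -1.07 to -0.90, adjusted p = 1.24e-11), which placed it at percentile 4.03 of the log2 fold changes of all tested genes. In the authors' deposited table of 2410 regulated genes, whose absolute log2 fold changes all exceed 1, ODC1 stands at -1.003.

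AMD1 (ENSG00000123505), S-adenosylmethionine decarboxylase, lies on chromosome 6 from 110874770 to 110895713. It had 142, 136.5 and 128 CPM with monensin, against 204, 219 and 212 CPM without. No monensin library reached the lowest untreated library. AMD1 fell by 0.65 (SE 0.05, 95% interval -0.75 to -0.54, adjusted p = 8.32e-09). Its pseudogene copies AMD1P1 to AMD1P4 had at most 12 counts each over a group.

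SRM (ENSG00000116649), spermidine synthase, on chromosome 1 from 11054584 to 11060024, had 126, 125 and 147 CPM with monensin and 211, 199.6 and 189 CPM without. Its monensin library 3 was the highest of that group but still below all untreated libraries. SRM fell by 0.59 (SE 0.06, 95% interval -0.72 to -0.46, adjusted p = 3.72e-07). After correction for GC and exon length the fall of SRM was larger, with a log2 fold change of -0.98 (adjusted p = 2.24e-12).

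SMS (ENSG00000102172), spermine synthase, on chromosome X from 21940573 to 21994835, had 65.0, 62.2 and 59.4 CPM with monensin and 65.5, 65.0 and 64.8 CPM without. The groups overlap, and the 3 untreated values were almost identical. Its log2 fold change was -0.07 with an SE of 0.05 (95% interval -0.17 to 0.04, adjusted p = 0.253), so a fall of more than 0.17 lies outside the interval. The sign of SMS depended on scaling: it was 0.02 under total counts (adjusted p = 0.727), and after GC and length correction SMS was called lower at -0.17 (adjusted p = 0.00254).

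**Figure D2:**
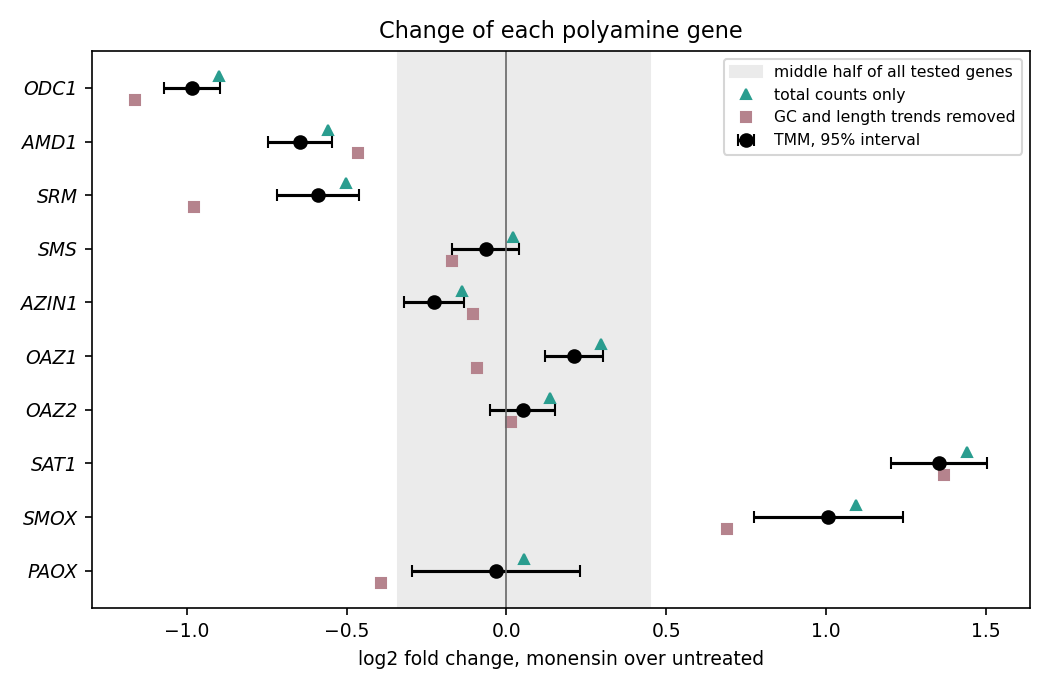
Log2 fold change of each polyamine gene, monensin over untreated, from edgeR with TMM scaling (black points, bars the 95% interval), with scaling by total counts (triangles) and after GC and exon-length correction (squares); the grey band runs from the lower to the upper quartile of all tested genes, -0.34 to 0.45. The band is that of the TMM fit, and the quartiles of the other fits are not drawn. ODC1, AMD1 and SRM lie below and SAT1 and SMOX above this band in all 3 versions, while OAZ1 changes sign.

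In the antizyme system AZIN1 fell, OAZ1 rose and OAZ2 was not called, all by 0.23 or less on the log2 scale. AZIN1 (ENSG00000155096), the antizyme inhibitor, on chromosome 8 from 102826357 to 102893864, had 344, 345 and 317 CPM with monensin and 379.9, 407 and 392 CPM without. The groups do not overlap, as was so for 71.1% of all tested genes. AZIN1 fell by 0.23 (SE 0.04, 95% interval -0.32 to -0.13, adjusted p = 0.000288). The log2 fold change was -0.14 under total counts (adjusted p = 0.0122) and -0.10 after GC and length correction (adjusted p = 0.0140). Part of AZIN1, 344 bases of exon, is shared with AZIN1-AS1 on the opposite strand, which had 101 counts over the monensin libraries and 89 over the untreated ones.

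OAZ1 (ENSG00000104904), the main antizyme, on chromosome 19 from 2269509 to 2273490, was the most abundant of the 10 genes in every library. It had 1120.1, 1156 and 1228 CPM with monensin and 1049, 996 and 982 CPM without, with no overlap. OAZ1 rose by 0.21 (SE 0.04, 95% interval 0.12 to 0.30, adjusted p = 0.000400). This direction did not hold after the correction for GC and length, under which OAZ1 was called lower at -0.09 (adjusted p = 0.0293). Under that correction the median log2 fold change of all tested genes was -0.06. The GC content of its longest transcript was 61.2%. JSRP1, on the opposite strand, shares 236 bases of exon with OAZ1 and had 408 counts over the monensin and 364 over the untreated libraries.

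OAZ2 (ENSG00000180304), the second antizyme, on chromosome 15 from 64687573 to 64703281, had 61.0, 62.7 and 63.8 CPM with monensin, against 61.7, 59.3 and 60.1 CPM without. The lowest monensin library lay inside the untreated range. Its log2 fold change was 0.05 with an SE of 0.05 (95% interval -0.05 to 0.15, adjusted p = 0.360). Among the alternatives run, OAZ2 was called higher only under total counts, at 0.14 (adjusted p = 0.0183). Under that scaling the median log2 fold change of all tested genes was 0.11.

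Of the catabolic genes, SAT1 and SMOX rose, with the highest log2 fold changes of the 10 genes, and PAOX was not called. SAT1 (ENSG00000130066), the acetyltransferase that marks spermidine and spermine for oxidation or export, on chromosome X from 23783173 to 23786226, had 32.2, 34.8 and 32.4 CPM with monensin, against 14.2, 12.4 and 12.3 CPM without. Every monensin library held more than 2 times the level of every untreated library. SAT1 rose 2.56-fold, a log2 fold change of 1.35 with an SE of 0.07 (95% interval 1.20 to 1.503, adjusted p = 1.67e-10), at percentile 95 of all tested genes. The authors' deposited table gives 1.33 for SAT1, and of the 10 genes that table holds only 2, ODC1 and SAT1. SAT1 messages are known to be spliced in productive and non-productive forms, which a count per gene does not separate.

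SMOX (ENSG00000088826), spermine oxidase, on chromosome 20 from 4120980 to 4187747, had 213, 238 and 245 counts with monensin and 124, 102 and 116 counts without. In CPM, counts scaled to library size, these were 8.30, 9.52 and 10.5 with monensin, against 4.97, 4.37 and 4.69 without, again with no overlap. SMOX rose 2.01-fold, a log2 fold change of 1.007 with an SE of 0.11 (95% interval 0.77 to 1.24, adjusted p = 7.69e-07).

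PAOX (ENSG00000148832), the oxidase of acetylated polyamines, on chromosome 10 from 133379234 to 133391694, had 124, 112 and 103 counts with monensin and 118, 95 and 129 counts without. In CPM this was 4.83, 4.48 and 4.41 with monensin, against 4.73, 4.07 and 5.22 without, so the untreated libraries enclosed the monensin libraries. Its log2 fold change was -0.03 with an SE of 0.12 (95% interval -0.30 to 0.23, adjusted p = 0.828). Counting error alone came to 9.41% of a monensin and 9.37% of an untreated value, and the interval includes changes of the size seen for AZIN1 and OAZ1, so such a change was not detectable at this depth. The log2 fold change of PAOX ran from -0.13 without untreated library 2 to 0.04 without untreated library 3, was 0.05 under total counts, and was called lower at -0.39 (adjusted p = 0.00907) after GC and length correction.

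Ratios of 2 genes within a library do not depend on how libraries are scaled, but they do carry any GC and length trend that differs between libraries. OAZ1 had 5.369, 5.396 and 5.427 counts per count of ODC1 with monensin, against 2.435, 2.338 and 2.305 without. On the log2 scale this ratio was 1.19 higher with monensin. The lengths of the genes differ, so the ratio itself is not one of molecules. Monensin libraries also had more AZIN1 per ODC1, with 1.65, 1.61 and 1.40, against 0.882, 0.955 and 0.919 in untreated libraries. AZIN1 counts thus exceeded those of ODC1 only after monensin, but per kb of exon the mean of AZIN1 was below that of ODC1 in both groups. AMD1 per ODC1 was 0.34 higher on the log2 scale, or 0.70 after GC and length correction, and SMS per SRM was 0.52 higher, or 0.81 after that correction. The ratio of the antizymes, OAZ2 to OAZ1, was lower by a log2 difference of -0.16 with no overlap, but higher by 0.11, again with no overlap, after GC and length correction, so its direction depends on that choice.

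The largest differences of the 10 were in the pairs that set SAT1 or SMOX over ODC1 or SRM. These pairs join genes called higher to genes called lower, so their size follows from the fold changes above. No pair set PAOX over a synthesis gene or a catabolic gene over SMS. SAT1 had 0.154, 0.162 and 0.143 counts per count of ODC1 with monensin, against 0.0330, 0.0292 and 0.0288 without, a log2 difference of 2.34. SAT1 per SRM differed by 1.95 and SMOX per SRM by 1.59. SMOX had 1.72, 2.13 and 2.38 counts per count of PAOX with monensin, against 1.05, 1.07 and 0.899 in untreated libraries, where their counts were near equal. For all 10 ratios the groups did not overlap. Each pair holds a gene whose own groups did not overlap, as was so for 71.1% of all tested genes. No share over other pairs of genes was computed, so this separation says nothing particular about the pathway. The two-sided exact permutation test gave p = 0.1 each, 0.1 after Benjamini-Hochberg adjustment over the 10, which is the smallest p that 3 libraries against 3 allow.

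**Figure D3:**
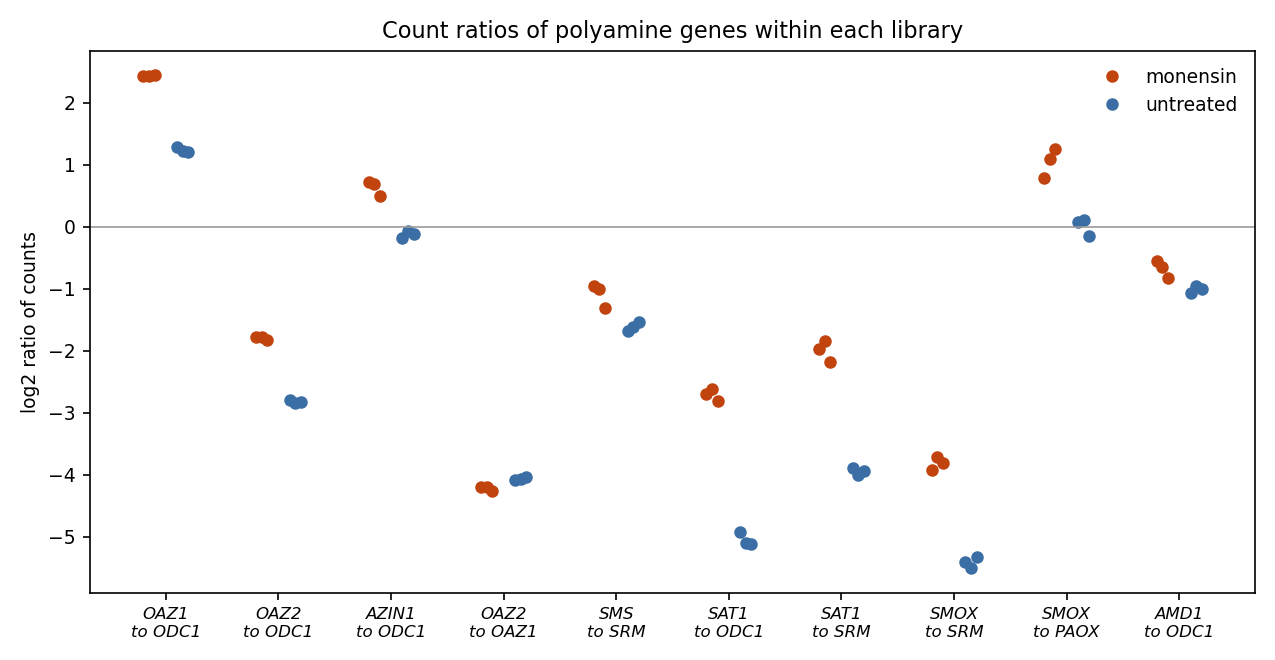
Log2 ratio of the counts of 2 polyamine genes in each library (y axis) for 10 pairs, monensin in red and untreated in blue, each point a library. The OAZ2 to OAZ1 pair is lower in monensin libraries, by 0.16 (higher by 0.11 after GC and length correction, not drawn), and the other 9 pairs are higher, by 0.34 to 2.34.

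Per kilobase of annotated exon, neighbouring genes changed places at 3 points in the order. OAZ1 came first, at 339.9 ± 16.0 CPM per kb with monensin and 294 ± 10.2 without (mean ± SD, n = 3). ODC1 came second, at 72.9 ± 3.05 with monensin, where it did not differ beyond the spread from SRM at 70.0 ± 6.55; in untreated cells ODC1 at 144 ± 0.905 stood above SRM at 105 ± 5.77. AZIN1 followed at 52.2 ± 2.45 with monensin and 61.1 ± 2.1 without. SMS at 28.8 ± 1.29 stood above AMD1 at 19.3 ± 1.02 with monensin, whereas in untreated cells AMD1 at 30.2 ± 1.06 and SMS at 30.1 ± 0.166 CPM per kb did not differ beyond their spread. SAT1 stood above OAZ2 with monensin, at 13.3 ± 0.573 against 8.15 ± 0.186 CPM per kb, and below it in untreated cells, at 5.19 ± 0.428 against 7.87 ± 0.165. SMOX and PAOX were lowest and also changed places by their means, with SMOX at 3.20 ± 0.374 and PAOX at 2.01 ± 0.0987 with monensin, and 1.59 ± 0.102 and 2.05 ± 0.252 without. This order depends on the length used: by the longest coding transcript, SRM at 105 stood above ODC1 at 81.6 CPM per kb with monensin, and by their means AMD1 stood above SMS and OAZ2 above SAT1 in both groups.

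As a share of the summed level per kb of the 10 genes, OAZ1 held 55.7% ± 0.714 with monensin and 43.1% ± 0.576 without. ODC1 held 11.95% ± 0.0897 with monensin, against 21.2% ± 0.362 without. SRM held 11.5% ± 0.696 with monensin and 15.45% ± 0.499 without, and AMD1 3.17% ± 0.272 with monensin and 4.43% ± 0.228 without. The share of SAT1 was 2.18% ± 0.128 with monensin and 0.761% ± 0.0463 without. The synthesis genes ODC1, SRM and AMD1 took smaller shares in every monensin library than in any untreated library, and OAZ1, OAZ2, SAT1 and SMOX larger ones. Shares are parts of a whole, so a share can rise because other genes fall. OAZ2, which was not called, held 1.34% ± 0.0208 with monensin and 1.155% ± 0.0187 without. The shares of AZIN1, SMS and PAOX overlapped between the groups. For the other 7 genes the exact permutation test gave p = 0.1, the smallest possible, and 0.143 after adjustment over the 10. After GC and length correction the difference in share, monensin minus untreated, was -8.72 percentage points for ODC1, -5.53 for SRM and 9.82 for OAZ1, but only -0.216 for AMD1, against -1.26 before it. By coding transcript length OAZ1 held 71.7% with monensin and 61.6% without, and ODC1 5.75% with monensin and 11.3% without.

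**Figure D4:**
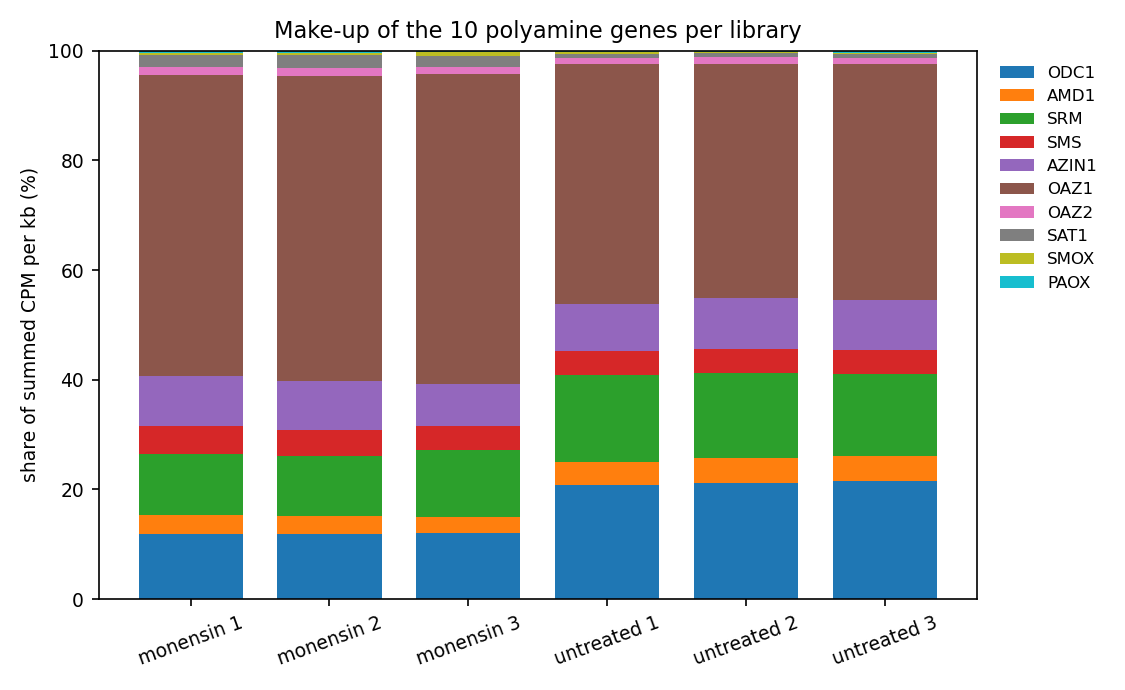
Share of each polyamine gene in the summed CPM per kb of the 10 genes (y axis, percent), one bar per library, the 3 monensin libraries left and the 3 untreated libraries right. OAZ1 takes 55.0% to 56.5% of the sum in monensin libraries and 42.7% to 43.8% in untreated ones, and ODC1 11.86% to 12.04% in monensin libraries and 20.8% to 21.5% in untreated ones.

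Genes of neighbouring steps were taken as 6 lists of 42 genes, of which 33 were tested. With monensin 9 of these were higher and 17 lower, 27.3% and 51.5% of those tested, against 34.1% and 33.7% of all tested genes. Their median log2 fold change was -0.21.

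Of the genes that supply ornithine and arginine, 5 of 6 tested fell and 0 rose. SLC25A15, which carries ornithine across the mitochondrial inner membrane, had 18.7 ± 0.746 CPM with monensin and 37.0 ± 1.20 without, a log2 fold change of -0.99 with an SE of 0.06 (adjusted p = 8.91e-10). The authors' deposited table gives -1.008 for SLC25A15. SLC7A2, a cationic amino acid transporter, fell by 0.85 (SE 0.09) and ALDH18A1, which makes the precursor of proline and ornithine, by 0.40 (SE 0.04). ARG2, the mitochondrial arginase that forms ornithine, had 1.98 ± 0.125 CPM with monensin, against 3.11 ± 0.507 in untreated libraries, and fell by 0.64 (SE 0.17, adjusted p = 0.00309). OAT, which interconverts ornithine and glutamate semialdehyde, fell by 0.15 (SE 0.04, adjusted p = 0.00466), but not under total counts (adjusted p = 0.191) or after GC and length correction (adjusted p = 0.212). SLC7A1, a cationic amino acid transporter, had a log2 fold change of 0.04 with an SE of 0.05 (adjusted p = 0.466), -0.01 when untreated library 1 was left out, and 0.13 under total counts (adjusted p = 0.0405); ARG1 and OTC were not tested.

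In supply of S-adenosylmethionine, 4 of 8 tested genes fell and 3 rose. MAT2A, the synthase outside the liver, had 328 ± 2.51 CPM with monensin and 403 ± 14.2 without (log2 fold change -0.30, SE 0.04), and its regulatory partner MAT2B fell by 0.21 (SE 0.06), but not under total counts (adjusted p = 0.102) or after GC and length correction (adjusted p = 0.173). MTR, methionine synthase, had 51.0 ± 0.416 CPM with monensin and 108 ± 7.16 without, and fell by 1.08 (SE 0.05, adjusted p = 9.48e-11). MTRR, which reactivates methionine synthase, fell by 0.53 (SE 0.05). GNMT, a methyltransferase that consumes S-adenosylmethionine, rose by 1.41 (SE 0.34, adjusted p = 0.00197) at 1.2175 ± 0.512 CPM with monensin, against 0.453 ± 0.0841 in untreated libraries. AHCYL1, a relative of the S-adenosylhomocysteine hydrolase AHCY, was called at 0.10 (adjusted p = 0.0484). That call was lost under 12 of 15 alternatives, among them RLE size factors (adjusted p = 0.0747) and the fits that left out monensin library 1 (0.206), monensin library 2 (0.161), or untreated library 1 (0.194), 2 (0.106) or 3 (0.0881). AHCY itself stood at -0.09 on the log2 scale (adjusted p = 0.0584), and was called lower under 5 of 15 alternatives. These were RLE size factors (adjusted p = 0.0379), DESeq2 (0.037), no filter (0.0322), the fit without monensin library 3 (0.00655) and GC and length correction. The last gave -0.34 (adjusted p = 1.04e-07). MAT1A was not tested.

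Methionine salvage recycles methylthioadenosine, the by-product of SRM and SMS. Of 6 tested genes 3 fell and 2 rose. ADI1 had 66.3 ± 1.43 CPM with monensin and 101 ± 3.85 without (log2 fold change -0.61, SE 0.05), MRI1 fell by 0.46 (SE 0.05) and ENOPH1 by 0.40 (SE 0.05); these are enzymes of the middle and late steps. GOT1, a transaminase of the final step, had 37.8 ± 0.304 CPM with monensin and 16.0 ± 1.502 without, and rose by 1.24 (SE 0.07, adjusted p = 2.9e-10). IL4I1, an amino acid oxidase listed with this pathway and best known for oxidising aromatic amino acids, had 13.8 ± 1.23 CPM with monensin, against 0.477 ± 0.177 in untreated libraries, a log2 fold change of 4.84 with an SE of 0.17 (adjusted p = 1.74e-12). APIP was not called (log2 fold change 0.06, adjusted p = 0.502), except after GC and length correction, at 0.17 (adjusted p = 0.0302), and was at -0.03 without untreated library 3. MTAP, the phosphorylase of the first step, was not tested, with 1 count over the monensin libraries and 0 over the untreated libraries.

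Hypusine, made from spermidine on the translation factor eIF5A, is formed by DHPS and then DOHH. EIF5A had 189 ± 7.71 CPM with monensin and 307 ± 10.1 without, and fell by 0.70 (SE 0.04, adjusted p = 1.29e-09). DOHH fell by 0.43 (SE 0.06, adjusted p = 2.07e-05), and by 0.82 after GC and length correction. DHPS was called higher at 0.15 (SE 0.05, adjusted p = 0.0256), but lower at -0.14 after GC and length correction (adjusted p = 0.00598), and the call was lost without monensin library 3 (adjusted p = 0.107), untreated library 2 (0.152) or untreated library 3 (0.0659). EIF5A2, the second eIF5A gene, stood at -0.07 on the log2 scale (adjusted p = 0.426), which was 0.02 under total counts, 0.03 after GC and length correction and 0.004 without monensin library 3.

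Of 5 tested genes of polyamine transport, 2 fell and 1 rose. ATP13A3, a transporter of the endosomal system that takes up polyamines, had 169 ± 10.1 CPM with monensin and 328 ± 25.6 without, and fell by 0.96 (SE 0.06, adjusted p = 8.16e-10). GPC1, a glypican whose heparan sulfate binds spermine, fell by 0.40 (SE 0.06), and by 0.68 after GC and length correction. SLC3A2, the heavy chain of several amino acid transporters and implicated in polyamine export, had 399 ± 13.0 CPM with monensin, against 155 ± 2.80 in untreated libraries, and rose by 1.36 (SE 0.04, adjusted p = 3.47e-13). ATP13A2, the lysosomal polyamine exporter, had 32.5 ± 2.11 CPM with monensin and 31.2 ± 1.31 without (log2 fold change 0.06, adjusted p = 0.401); it was 0.15 under total counts (adjusted p = 0.0436) and -0.23 after GC and length correction (adjusted p = 0.00138). SLC47A1 was not called (adjusted p = 0.949), and ATP13A4, SLC18B1, SLC22A2 and SLC22A3 were not tested.

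Of 4 relatives of the 10 genes, 2 rose and 1 fell. SAT2, a paralogue of SAT1 whose main substrate is thialysine rather than polyamines, had 19.5 ± 1.03 CPM with monensin and 4.76 ± 0.752 without (log2 fold change 2.03, SE 0.10, adjusted p = 7.48e-11). AZIN2, a second antizyme inhibitor, rose by 2.09 (SE 0.41, adjusted p = 0.000332) at 1.13 ± 0.331 CPM with monensin, against 0.256 ± 0.203 in untreated libraries. Its untreated counts were 12, 2 and 5, and without untreated library 1 its log2 fold change was 2.90 (adjusted p = 4.77e-05). AGMAT, named for agmatine hydrolysis, had 10.9 ± 0.921 CPM with monensin, against 21.2 ± 1.2245 in untreated libraries, and fell by 0.96 (SE 0.08, adjusted p = 2.65e-08). OAZ3, the antizyme of testis, was not called at 0.706 ± 0.238 CPM with monensin and 0.894 ± 0.157 without (adjusted p = 0.312).

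**Figure D5:**
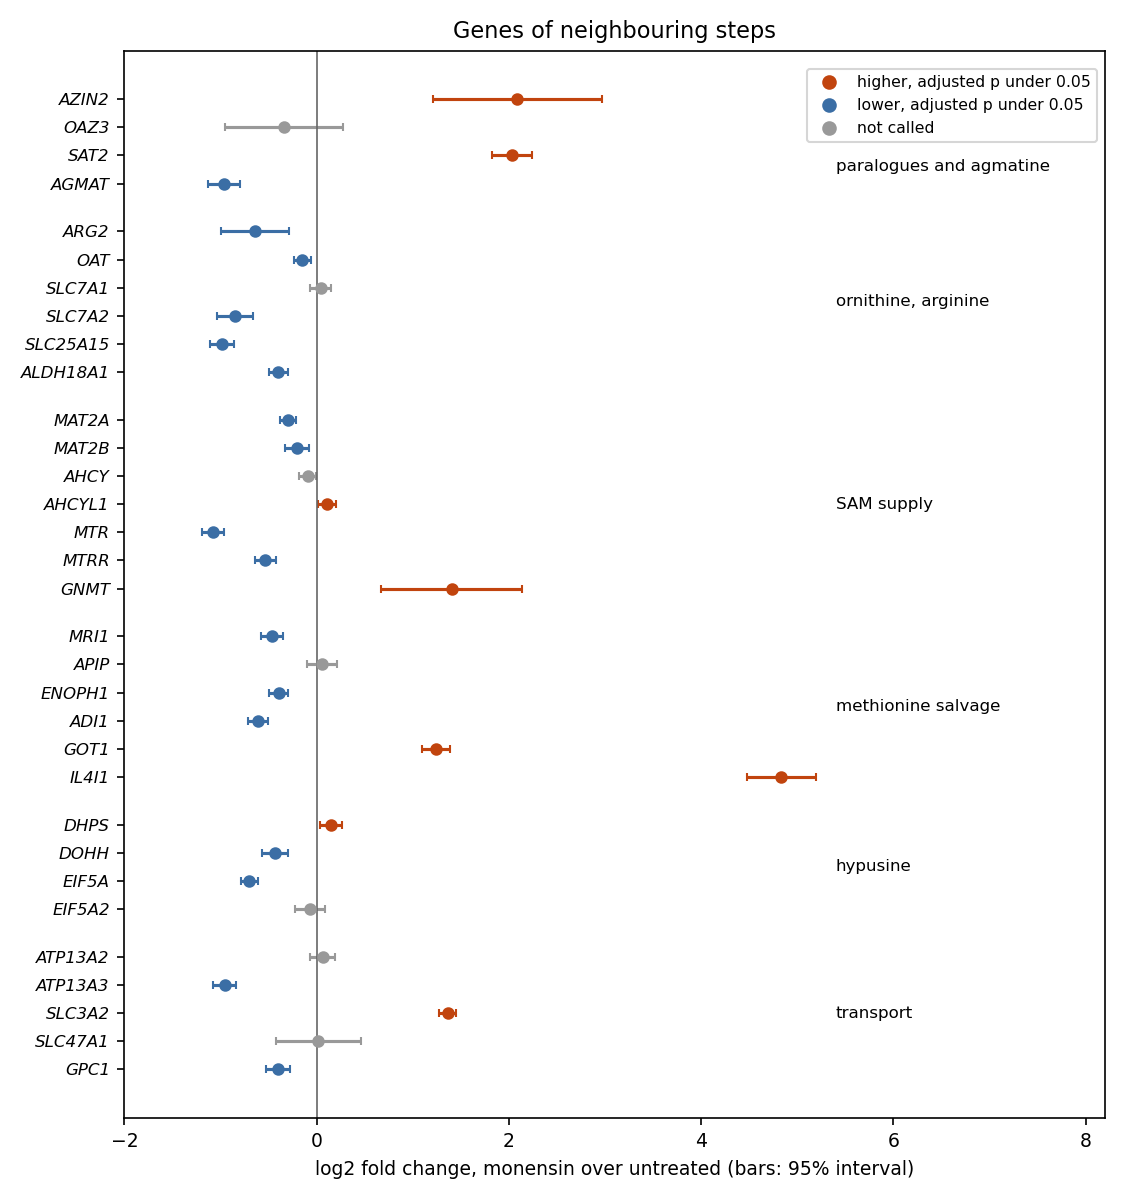
Log2 fold change of 32 of the 33 tested genes of neighbouring steps, monensin over untreated (x axis), with 95% intervals and grouped by list; red points were called higher, blue points lower and grey points were not called. In the ornithine and arginine list 5 of 6 genes are blue, and the transport list holds SLC3A2 at 1.36 and ATP13A3 at -0.96.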

How the data were processed

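THP-1 cells were sequenced in 3 monensin and 3 untreated libraries, as single reads of 75 nt from a directional kit, per the labels' protocols. The authors deposited raw read counts per Ensembl gene, without normalization; tools named in the submitters' processing notes are Trimmomatic 038, HISAT2 2.1.0 and HTSeq 0.11.1, with GRCh38 as the build, besides bcl2fastq and DESeq2 1.22.2. The annotation release and the strand setting of counting are not given in the sources used here, so where genes on opposite strands share exons their reads cannot be told apart. The authors also deposited log2 fold changes for 2410 genes. The 5 tally lines, 21.6% ± 0.401 of tallied alignments with monensin and 19.3% ± 0.389 without, were left out.

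In R 4.3.3, edgeR 4.0.16 filtered low counts, scaled libraries by TMM and ran its quasi-likelihood F test, with treatment as the only term and Benjamini-Hochberg adjustment over all tested genes. Standard errors came from the coefficient and its F statistic, and the 95% intervals from the t distribution of the fit. Places, lengths and GC content are those of GENCODE 29 on GRCh38, which held 58275 of the 58395 identifiers. Ratios had 0.5 counts added to each gene on the log2 scale; the ratios given as counts per count had none added. The fits were tested on simulated data, in which far fewer genes changed than here (40 to 56 at each fold). There edgeR recovered 62.5% of 1.25-fold, 75% of 1.5-fold, 83.7% of 2-fold and 100% of 4-fold changes. It made 12 false calls among 15791 genes. Small changes can thus be missed. Gene lists and members were chosen with earlier results of these data known. All 10 genes are named; of each neighbouring list the rule took up to 4 genes, those that changed most among genes averaging 2 or more in log2 CPM, those called against most of their list where 5 or fewer did so, and the untested genes. A few genes of the lists are counted but not reported here by name. AZIN2, OAZ3, ARG2, SLC7A1, MAT2B, AHCY, ENOPH1, APIP, SLC47A1 and the counts of MTAP were added after their values were seen. Alternatives were total counts or RLE factors for scaling, either no filter or one that asks for 50 counts in all and 1 CPM in 3 libraries, DESeq2 1.42.0, a block for the replicate number, leaving out each library, leaving out mitochondrial genes, an adjusted p under 0.01, and a correction for GC and length by spline trends fitted in each library. Nothing in the labels ties replicates to separate cultures, so p-values measure the spread of these libraries, which may be technical. No libraries were identical, and chi-square per degree of freedom within groups was 1.84 to 4.68. Counting errors cover counting only, since reads that carry no molecular identifier need not come from different molecules.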

Additional observations from a re-analysis of the deposited data

Results flagged for a closer look

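AC100830.3, an antisense transcript that shares 554 bases of exon with OAZ2 on the opposite strand and is outside the comparisons above, had 32 counts over the 3 monensin libraries (12, 10 and 10) and 12 over the untreated libraries (1, 3 and 8). It stands here because every monensin library was above every untreated one, but the groups of 71.1% of all tested genes did not overlap either. Its counts are near the floor, and it was picked by this separation, so the p-value below adds no independent support. AC100830.1 and AC100830.2, also antisense to OAZ2, overlapped between the groups. They had 12 and 7 counts over the monensin libraries and 5 and 1 over the untreated libraries. Its log2 fold change was 1.37 by edgeR (adjusted p = 0.0236), and its untreated counts came to 0.272% of those of OAZ2.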

How the results depend on the processing

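The calls of all 10 polyamine genes were the same as with TMM under 13 of 15 alternatives; total counts changed 1 and correction for GC and length changed 3, and the cause was not tested. Under total counts OAZ2 was called at 0.14, and SMS (0.0212) and PAOX (0.0535) changed sign without a call. After GC and length correction, 7 of the 10 genes were called lower in place of 4, with OAZ1 at -0.09, SMS at -0.17 and PAOX at -0.39. PAOX ran from -0.13 to 0.0427 over the fits that left out a library. By coding transcript length, the monensin minus untreated difference in share became -0.0934 percentage points for SMS and -0.00269 for PAOX, from 0.305 and 0.0283. Among named neighbouring genes, EIF5A2 changed sign under total counts (0.0175), after GC and length correction (0.0333) and without monensin library 3 (0.004034), and after that correction DHPS (-0.14) and ATP13A2 (-0.23) did too. Genes named outside the rule were run under the same alternatives after their values were seen: SLC47A1 changed sign with no filter (-0.00486) and after GC and length correction (-0.0909), running from -0.19 to 0.12 with a library left out; SLC7A1 changed sign after that correction (-0.0850), running from -0.0112 to 0.0814; APIP ran from -0.0305 to 0.0923. Calls of neighbouring genes were lost in 21 instances, 12 of them for AHCYL1, and gained in 8. No other named gene changed direction under the alternatives in which it was tested. The 10 ratios kept their direction with 5 counts added and without each library. Ratios and shares were also recomputed after GC and length correction, a choice made after seeing the data: OAZ2 to OAZ1 reversed to 0.11, and the differences in share of AZIN1 (1.70 percentage points) and PAOX (-0.00227) changed sign. Replicate numbers did not pair the libraries: deviations of same-numbered libraries correlated at -0.12, 0.14 and 0.04. With the replicate number as a block, 5515 genes were higher and 5435 lower, against 5638 and 5570 without the block; ODC1 stood at -0.98 and SAT1 at 1.35, and no call among the 10 genes changed. Over all genes, DESeq2 called 4844 higher and 5206 lower. Depth limits PAOX and SMOX, with 95 to 245 counts a library, more than the others.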

Other observations

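MTAP, which clears the methylthioadenosine left by spermidine and spermine synthesis, had 1 count over the monensin libraries and 0 over the untreated libraries. It lies on chromosome 9 from 21802543 to 21937651. Its neighbours CDKN2A and CDKN2B were at 0 in all 6 libraries. Between the nearest genes with at least 100 counts on either side, HACD4 below and the pseudogene CLIC4P1 above, lie 54 annotated genes, 22 of them protein-coding. Of these 22, 18 were at 0 in all libraries, and all 54 together had 31 counts with monensin and 38 without. Most of the 22 are interferon genes. Of all 58395 genes, between 24325 and 25740 were detected in a library, so a count of 0 is common. Why the region holds so few counts was not tested. This region was looked at after the count of MTAP was seen. SLC18B1, a vesicular polyamine transporter, was also listed at 0 in all 6 libraries.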
